A study of Mus musculus with 24 samples.

Results

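A set of 9 genes that mark the pyramidal cell fields of the mouse hippocampus were followed through hippocampal RNA of mice whose fathers or grandfathers had received a methyl donor-rich diet. The genes were chosen by name. Wfs1, Fibcd1, Mpped1 and Pou3f1 stand for field CA1, Rgs14, Amigo2 and Pcp4 for field CA2, and Iyd and Bok for field CA3. Each of the 9 genes had 1 probe among the 39429 probes of the array, of which 26055 carried 1 of 19751 gene symbols. All 9 were kept in every test, with no filter on low values. Cy3-labelled RNA was hybridised to 24 one-colour Agilent arrays, 6 for each of 4 groups. CD F1 and MD F1 were offspring of C57BL/6J fathers on control diet (CD) or on a methyl donor diet (MD) for 6 weeks before mating. The methyl donor diet was enriched in methionine, choline, betaine, folic acid, vitamin B12 and zinc. CD F2 and MD F2 descended from the same kinds of founder through F1 males, so that in F2 the diet was that of the grandfather. All offspring themselves ate control diet. The labels give an age of 4 weeks for every sample, whereas the study's methods describe adult offspring. The labels call F1 mice congenic C57BL/6J x 129S6/SvEv hybrids, where the study's text calls them isogenic, and F2 mice mixed hybrids of both strains. The design text describes pools of 4 mice per array. F2 arrays also carried the code lh or rh, 6 of each and 3 of each per diet. The labels do not spell the code out. Where nothing states that pools came from separate litters, P-values measure the spread between these pools.

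The hippocampus proper is a sheet of pyramidal neurons divided into fields. Granule cells of the dentate gyrus send mossy fibres to CA3, CA3 axons reach CA1 through the Schaffer collaterals, and CA1 is a main output to the subiculum and entorhinal cortex. CA2 lies between CA3 and CA1, receives direct entorhinal input and is known for its resistance to long-term potentiation and its part in social memory. Each field expresses its own set of genes, which serve in brain atlases to draw its borders. In RNA from a whole hippocampus, a marker's signal depends both on how many cells of the field were in the tissue and on how much RNA each cell made, and fewer cells and less RNA per cell cannot be told apart.

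Median array intensity ran from 167 to 318 in F1 and from 148 to 262 in F2, and 33926 to 37013 spots in F1 and 27383 to 34661 spots in F2 were well above background. The number of arrays limits the precision. Array MD F1 replicate 6 stood apart from the other F1 arrays and had the lowest F1 median intensity. CD F2 replicate 6 and MD F2 replicate 3 stood apart in F2, with 28000 and 27383 spots above background against at least 32809 on the other F2 arrays. A sex measure was taken as the mean of Y-linked genes minus Xist (log2). It lay between -2.30 and -1.90 on the CD F1 arrays. On the MD F1 arrays it lay between -2.15 and 0.16, and was highest on MD F1 replicate 6. In F2 it was above 5 on 9 arrays and below -5 on 3. Such values are those of RNA mostly of one sex on each F2 array, and whether each F2 array holds a pool of 4 mice of 1 sex or fewer mice is not settled by the labels. Diet groups were balanced 2 against 2 on each of the 6 slides. F1 and F2 were on different slides. Of the marker lists, 5 of 6 dentate granule cell genes, 5 of 5 glutamatergic neuron genes and 6 of 6 interneuron genes were above background on all 24 arrays. So were 5 of 5 neocortex, 5 of 6 thalamus, 5 of 6 striatum and 5 of 7 choroid plexus genes, 5 of 5 each for oligodendrocytes, astrocytes, microglia and vascular cells, and no list gene was at 0 on all arrays. At least 13790 of the 19751 gene symbols were above background on all 24 arrays too. Detection of a list therefore cannot check which tissue was taken.

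All members but Iyd were well above background on all 24 arrays, and none was saturated. Iyd, which encodes iodotyrosine deiodinase, an enzyme that recovers iodide, was above background on 20 of 24 arrays: 6 in CD F1, 6 in MD F1, 3 in CD F2 and 5 in MD F2. Its processed intensity ran from 3.88 to 40.0. Values below are log2 processed signals, quantile-normalised within a generation, and a difference of 1 on this scale is a 2-fold change. Levels of different probes are not comparable with each other.

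**Figure D1:**
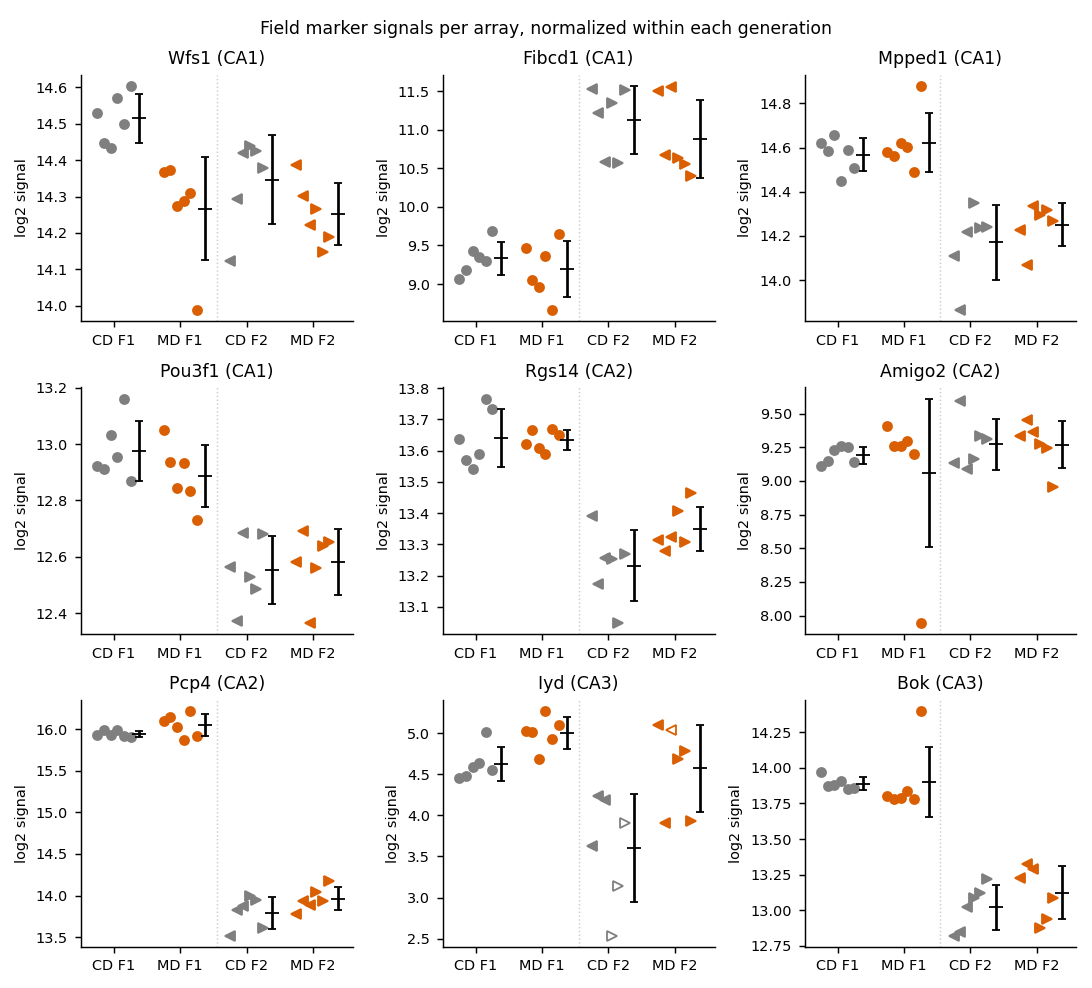
Log2 signal (y axis of each panel, own scale) of each of the 9 field marker probes on each of the 24 arrays, normalised within each generation, with CD groups in grey and MD groups in orange. Triangles pointing left and right are F2 arrays coded lh and rh, open symbols are arrays on which the probe was not well above background, and bars give the mean ± SD of the 6 arrays in a group. Wfs1 was lower on all 6 MD F1 arrays than on any CD F1 array, 1 MD F1 array lay far from the others for Amigo2 and Bok, and levels on either side of the dotted line should not be compared with each other.

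In F1, the normalised signal of the CA1 marker Wfs1 was lower in offspring of MD fathers, and that of the CA3 marker Iyd higher. Neither passed the correction over all probes. Wfs1 encodes wolframin, a membrane protein of the endoplasmic reticulum that is abundant in dorsal CA1. Its signal was 14.53, 14.45, 14.43, 14.57, 14.50 and 14.60 on the CD F1 arrays and 14.37, 14.37, 14.27, 14.29, 14.31 and 13.99 on the MD F1 arrays. The groups did not overlap, and the lowest MD value was on the array that stood apart. The mean was 14.51 ± 0.067 (SD, n = 6) against 14.27 ± 0.142 (n = 6), a log2 difference of -0.25 (SE 0.072, 95% interval -0.40 to -0.09), or 1.19-fold lower. The limma P was 0.0048 and the adjusted P 0.21 over 39429 probes. An exact two-sided permutation test gave P = 0.0022, the smallest that 6 against 6 arrays allow. Wfs1 was 1 of 9 members whose F1 diet groups did not overlap, beside 1.79% of all probes. With the sex measure as a term in the fit, its difference was -0.15 (adjusted P = 0.50), and without the array that stood apart it was -0.19 (adjusted P = 0.15). The sex measure ran higher in MD F1 than in CD F1, so that term overlaps with diet.

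The other CA1 markers differed by less than the spread between F1 arrays. Fibcd1, an acetyl-group-binding receptor with a fibrinogen-like domain, was 9.06, 9.18, 9.43, 9.35, 9.30 and 9.69 in CD F1 and 9.46, 9.05, 8.97, 9.36, 8.67 and 9.64 in MD F1. The MD F1 range enclosed most of the CD F1 values, and the difference was -0.14 (95% interval -0.50 to 0.21, adjusted P = 0.69). Mpped1, which encodes a metallophosphoesterase-domain protein, averaged 14.57 ± 0.076 in CD F1 and 14.62 ± 0.134 in MD F1, with an interval of the difference from -0.10 to 0.21. Pou3f1, a POU-domain transcription factor, averaged 12.98 ± 0.106 in CD F1 and 12.89 ± 0.109 in MD F1 (interval -0.24 to 0.07). With Wfs1, 3 of the 4 CA1 markers were lower in MD F1, with a median log2 difference of -0.11, where the median over all probes was 0.01.

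None of the 3 CA2 markers differed between the F1 diet groups beyond their spread. Rgs14, a regulator of G-protein signalling that limits synaptic plasticity in CA2 neurons, was at 13.64 ± 0.092 in CD F1 and 13.63 ± 0.032 in MD F1. Its interval of -0.13 to 0.12 was the narrowest of the 9 in F1. Pcp4, a small calmodulin-binding protein, was 15.93, 15.99, 15.93, 15.99, 15.91 and 15.90 in CD F1 and 16.09, 16.14, 16.03, 15.87, 16.21 and 15.91 in MD F1. On 4 of 6 MD arrays it was above every CD array, and the difference was 0.10 (interval -0.04 to 0.24, adjusted P = 0.50). Amigo2, a cell adhesion protein with leucine-rich repeats, was 9.11 to 9.26 in CD F1 and 9.20 to 9.41 on 5 MD F1 arrays, but 7.95 on MD F1 replicate 6. The mean difference of -0.13 (interval -0.59 to 0.33) therefore rested on 1 array, and it was 0.09 (adjusted P = 0.44) without that array.

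Among the CA3 markers, the normalised signal of Iyd was higher in MD F1. It was 4.46, 4.48, 4.59, 4.64, 5.02 and 4.55 on the CD F1 arrays and 5.02, 5.01, 4.69, 5.27, 4.94 and 5.10 on the MD F1 arrays. The groups overlapped through CD F1 replicate 5 alone, and the other CD F1 arrays were below every MD F1 array. The difference was 0.38 (SE 0.112, interval 0.13 to 0.62), or 1.30-fold, with a limma P of 0.0055, an adjusted P of 0.22 and an exact permutation P of 0.011. It was 0.23 after 75th percentile scaling and 0.08 after normexp correction with an offset of 50 on the median spot signals. That offset is above every processed Iyd intensity and shrinks log2 differences of this probe by itself, so the value of 0.08 decides nothing. Before normalisation the groups overlapped widely, with processed intensities of 21.7 to 40.0 in CD F1 and 20.3 to 38.4 in MD F1. The lowest was that of MD F1 replicate 6. Median array intensity was 251 to 318 in CD F1 and 167 to 262 in MD F1, so the Iyd difference depends on the normalisation. Bok, a pro-apoptotic member of the Bcl-2 family, was 13.97, 13.87, 13.88, 13.91, 13.86 and 13.86 in CD F1. On the MD F1 arrays it was 13.81, 13.78, 13.79, 13.84, 13.78 and 14.40. It was thus below every CD array on 5 of 6 MD arrays and MD F1 replicate 6 was above all of them. The mean difference was 0.01 (interval -0.21 to 0.23), and -0.09 (adjusted P = 0.36) without that array.

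Counted together, 0 of the 9 members passed the adjusted threshold of 0.1 for diet in F1, where 0.033% of all probes did. At an unadjusted P under 0.05 there were 2 of 9, Wfs1 and Iyd, beside 14.4% of all probes.

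In F2, where the grandfather's diet was compared, 0 of the 9 members passed the adjusted threshold in limma, as did 0% of all probes, and 1 of 9, Iyd, had an unadjusted P under 0.05, beside 5.6% of all probes. Iyd was 3.63, 4.23, 4.19, 2.54, 3.14 and 3.90 in CD F2 and 5.10, 3.90, 5.04, 4.69, 4.78 and 3.93 in MD F2. On 4 of 6 MD arrays it was above every CD array. The difference was 0.97 (SE 0.323, interval 0.26 to 1.67), with a limma P of 0.012, an adjusted P of 0.89 and an exact permutation P of 0.022. The 3 CD F2 arrays coded rh were not well above background. Normexp correction, whose offset shrinks differences at so low a signal, gave a difference of 0.17. Wfs1 was 14.12, 14.29, 14.42, 14.44, 14.42 and 14.38 in CD F2 and 14.39, 14.30, 14.22, 14.27, 14.15 and 14.19 in MD F2. These groups overlapped, and the difference was -0.09 (interval -0.25 to 0.06, adjusted P = 0.93).

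The other 7 members overlapped between the F2 diet groups too, so that 0 of 9 were separated, beside 0.365% of all probes. Rgs14 was 13.39, 13.17, 13.26, 13.25, 13.05 and 13.27 in CD F2 and 13.31, 13.28, 13.32, 13.41, 13.31 and 13.46 in MD F2. Every MD array was above all CD arrays but CD F2 replicate 1, and the difference was 0.12 (interval -0.03 to 0.27, adjusted P = 0.92). Pcp4 averaged 13.80 ± 0.190 in CD F2 and 13.96 ± 0.135 in MD F2, a difference of 0.17 (interval -0.05 to 0.38). Amigo2 had the same mean of 9.27 in both groups (interval -0.23 to 0.23). Fibcd1 averaged 11.13 ± 0.444 in CD F2 and 10.89 ± 0.506 in MD F2, a difference of -0.24 (SE 0.258, interval -0.81 to 0.32, adjusted P = 0.94). Bok differed by 0.10 (interval -0.12 to 0.33), Mpped1 by 0.08 (interval -0.11 to 0.27) and Pou3f1 by 0.03 (interval -0.14 to 0.20).

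**Figure D2:**
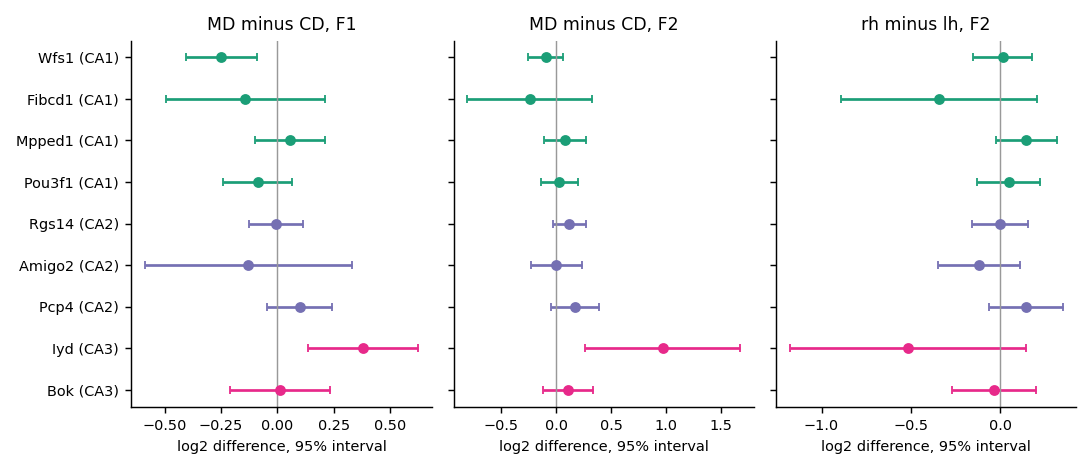
Log2 difference (x axis) with its 95% interval for each field marker, for MD minus CD in F1, MD minus CD in F2 and rh minus lh in F2, each fitted by limma on 12 arrays. Green, violet and pink mark CA1, CA2 and CA3 genes. The intervals of Wfs1 and Iyd in F1 and of Iyd in F2 leave out 0, and no member passed the correction over all probes.

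Whether a diet difference differed between generations was tested by the interaction over 24 arrays normalised together. The interaction is the F1 difference minus the F2 difference. It passed the adjusted threshold for 0 of 9 members, where 0.0127% of all probes passed, and 0 of 9 had an unadjusted P under 0.05, beside 8.29% of all probes. For Wfs1 it was -0.13 (SE 0.099, adjusted P = 0.76), for Iyd -0.54 (SE 0.348, adjusted P = 0.72) and for Rgs14 -0.13 (SE 0.083, adjusted P = 0.72). The other 6 members lay between -0.13 and 0.11, with adjusted P from 0.82 to 0.97.

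Within slides the diet differences of Wfs1 and Iyd were as follows. In F1, Wfs1 was lower in MD on all 3 slides, by -0.34, -0.18 and -0.22 on slides 4, 5 and 6. That direction follows from its F1 diet groups not overlapping, and is no further support. In F2 Wfs1 differed by 0.01, -0.17 and -0.13 on slides 1, 2 and 3. Iyd was higher in MD on all 6 slides, by 0.14, 0.40 and 0.59 in F1 and by 1.13, 1.64 and 0.13 in F2. These are the same arrays as in the group comparisons, so the shared direction of Iyd is no further support either. On slide 2, 3 of 4 arrays (both CD arrays and 1 MD array) and on slide 1, 1 CD array were not well above background, so these F2 sizes are uncertain. Each slide held 2 arrays of each diet, and no test within a slide was run. With the slide as a block, the adjusted P in F1 was 0.25 for Wfs1 and 0.26 for Iyd.

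**Figure D3:**
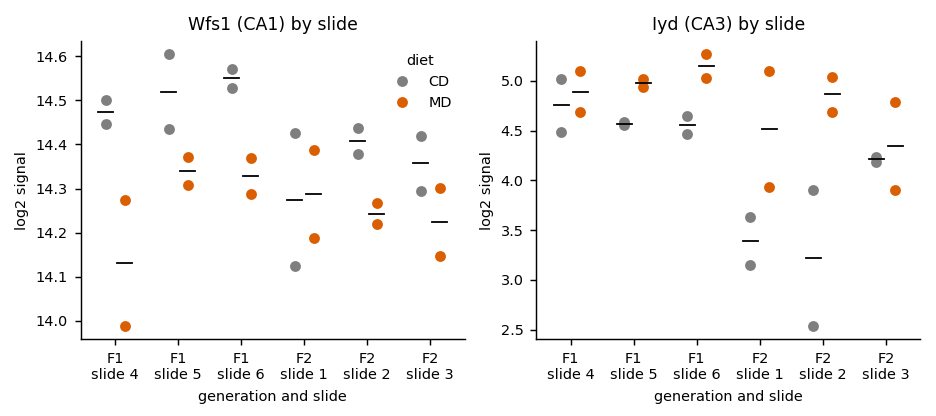
Log2 signal (y axis) of Wfs1 and Iyd on each array, by generation and slide (x axis), with CD in grey, MD in orange and short lines at the mean of 2 arrays. On the 3 F1 slides both MD points lay below both CD points for Wfs1, and the MD mean of Iyd lay above the CD mean on all 6 slides. For Wfs1 this follows from the F1 diet groups not overlapping, and for Iyd it re-uses the arrays of the group comparisons.

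To set F1 and F2 levels side by side, all 24 arrays were normalised together, a comparison added after the values were seen. Fibcd1 was 4.36-fold higher in CD F2 than in CD F1, with means of 11.32 ± 0.467 and 9.19 ± 0.216 (n = 6 each) and a log2 difference of 2.13 (SE 0.230, limma adjusted P = 5.67e-08). Pcp4 was 2.74-fold lower in CD F2, with 14.10 ± 0.199 against 15.56 ± 0.038 (log2 difference -1.46, SE 0.085, adjusted P = 9.69e-12). Of the members, 7 of 9 passed the adjusted threshold between CD F2 and CD F1, and so did 60.2% of all probes. Wfs1 was 0.47 higher (adjusted P = 4.75e-06), Amigo2 0.37 higher (adjusted P = 0.076) and Bok 0.32 lower, at -0.32 (adjusted P = 0.012), in CD F2. Scaling to the 75th percentile instead gave 2.10 for Fibcd1 and -1.78 for Pcp4, reduced Wfs1 to 0.17, and turned the sign for Mpped1 (0.24 to -0.05), Pou3f1 (0.09 to -0.07) and Rgs14 (0.14 to -0.06). Generation, strain mix, sex measure and slide changed together, and cannot be told apart.

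On this common scale the order of the 4 groups was the same under both scalings for Fibcd1, Pcp4, Wfs1, Amigo2 and Bok, and changed with the scaling for the other 4 members. Fibcd1 rose from MD F1 (9.05) through CD F1 (9.19) and MD F2 (11.06) to CD F2 (11.32), and of these steps only that of 1.87 between CD F1 and MD F2 exceeded the summed SDs of its neighbours. Pcp4 went from CD F2 (14.10) through MD F2 (14.28) and CD F1 (15.56) to MD F1 (15.65), with only the step of 1.28 between MD F2 and CD F1 larger than the summed SDs. Wfs1 was ordered MD F1 (13.97), CD F1 (14.21), MD F2 (14.58) and CD F2 (14.68), and the lower pair of steps, 0.24 and 0.37, exceeded the summed SDs. After 75th percentile scaling the Wfs1 means were 14.125, 14.31, 14.45 and 14.49 in the same order. The step between CD F1 and MD F2 was thus smaller there, and steps were not set against SDs on that scale. Amigo2 was ordered MD F1 (8.92), CD F1 (9.05), MD F2 (9.42) and CD F2 (9.42), and only the step of 0.37 between CD F1 and MD F2 exceeded the summed SDs. The place of MD F1 below CD F1 rested on MD F1 replicate 6, at 7.79, and by medians MD F1 (9.11) was above CD F1 (9.04). The same array, at 14.09, put MD F1 above CD F1 for Bok, where by medians MD F1 (13.51) was below CD F1 (13.59). For Mpped1, Pou3f1, Rgs14, Iyd and Bok no neighbouring groups differed beyond their spread.

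The code lh or rh of the F2 arrays did not separate any member. Adjusted for diet, 0 of 9 passed the threshold where 0.0254% of all probes did, 0 of 9 had an unadjusted P under 0.05 beside 7.78% of all probes, and 0 of 9 had groups that did not overlap beside 0.553% of all probes. Mpped1 was 14.11, 13.87, 14.22, 14.23, 14.07 and 14.34 on the lh arrays and 14.35, 14.24, 14.24, 14.29, 14.32 and 14.27 on the rh arrays. Its lh values spread over a wider range than the rh values, with SDs of 0.163 and 0.044, and the rh minus lh difference was 0.15 (interval -0.02 to 0.32, adjusted P = 0.71). Pcp4 was 0.15 higher in rh (interval -0.06 to 0.35), Fibcd1 -0.34 (interval -0.89 to 0.21) and Iyd -0.52 (interval -1.18 to 0.14). The remaining 5 differed by between -0.12 and 0.05. The code was uneven over slides, with 2 lh and 2 rh arrays on slide 1, 1 and 3 on slide 2, and 3 and 1 on slide 3. Within slides, Fibcd1 was lower in rh on all 3, by -1.04, -0.39 and -0.27, and so was Amigo2, by -0.09, -0.12 and -0.14, whereas Mpped1, Pcp4 and Iyd did not keep one direction. These slide differences took no account of diet, and CD arrays did not share them. Fibcd1 averaged 11.11 (lh) and 11.14 (rh) in CD F2, and 11.24 and 10.53 in MD F2. Amigo2 averaged 9.27 under both codes in CD F2, and 9.38 (lh) and 9.16 (rh) in MD F2.

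Markers of the choroid plexus, a tissue lining the ventricle beside the hippocampus, did not pass the adjusted threshold for the code in limma (0 of 7, lowest adjusted P = 0.30). All 7 list genes had a lower mean in rh and an unadjusted P under 0.05, beside 7.78% of all probes, with a median difference of -2.98. Ttr, the transthyretin gene that choroid plexus expresses at high level, differed by -4.69. The mean level of the list ran from 8.87 to 12.52 on lh arrays and from 7.18 to 11.91 on rh arrays, so that the code groups overlapped. With diet in F2, all 7 were lower in MD (median -2.30), with 0 of 7 at an unadjusted P under 0.05. The part of this tissue in the members' values was not tested.

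Bok, the CA3 marker, had the smallest P of the members for a diet difference that depended on the code, a contrast looked at after the values were seen. The MD minus CD difference changed sign between lh and rh in 4 of 9 members, Wfs1, Fibcd1, Amigo2 and Bok. The share of all probes that changed sign was not computed, so this count is a description only. Among lh arrays Bok was 12.82, 12.85 and 13.02 in CD F2 and 13.23, 13.33 and 13.29 in MD F2. Among rh arrays it was 13.09, 13.12 and 13.22 in CD F2 and 12.87, 12.94 and 13.09 in MD F2. The MD mean was above the CD mean under lh (13.28 against 12.90) and below it under rh (12.97 against 13.14). The rh diet difference minus the lh diet difference was -0.56 (SE 0.132, limma adjusted P = 0.40 over 39419 probes), so it did not pass. With the arrays that stood apart left out it was -0.51 (adjusted P = 0.88). No probe passed this test (0%), 9.01% of all probes had an unadjusted P under 0.05, and Bok was 1 of 9 members that did. For Wfs1 it was -0.24 (SE 0.135, adjusted P = 0.60), with CD F2 means of 14.28 (lh) and 14.41 (rh) against MD F2 means of 14.30 and 14.20.

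Covariation among the members was measured as the correlation of their deviations from the diet group means, over 12 arrays per generation. There were 36 pairs in each generation, 72 in all, and 0 of 72 passed a Benjamini-Hochberg adjusted permutation P of 0.05 (lowest adjusted P = 0.20), with 5 of 72 at an unadjusted P under 0.05. Genes of the same field did not stand together. In F1 the 10 same-field pairs had a median Pearson r of 0.01 (range -0.89 to 0.46), and the 26 pairs across fields a median of 0.03. In F2 the same-field median was -0.14 (range -0.64 to 0.24) and the median across fields 0.13. Of the 36 pairs, 16 had the same sign of r in both generations.

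The 5 pairs with an unadjusted P under 0.05 are given here, beside Amigo2 and Bok, whose r was the largest in size. In F1, Pou3f1 and Amigo2 rose and fell together (r = 0.61, permutation P = 0.0035; rho = 0.62, permutation P = 0.0027; adjusted P = 0.20 and 0.098), and r was 0.75 without the 2 arrays farthest from the Pou3f1 median. In F2 the same pair had r = -0.50 (permutation P = 0.12, adjusted P = 0.55). Wfs1 and Mpped1, both CA1 markers, were opposed in F1 (r = -0.89, permutation P = 0.0056; rho = -0.83, permutation P = 0.0027; adjusted P = 0.20 and 0.098), with r = -0.69 without the 2 arrays farthest from the Wfs1 median and -0.63 without MD F1 replicate 6. In F2 this pair had r = 0.24. Amigo2 and Bok had r = -0.97 in F1 (permutation P = 0.076, adjusted P = 0.47), which rested on MD F1 replicate 6, since r was -0.05 without it. In F1, 6 of 36 pairs had r beyond 0.8 in size, and 0 of 36 did without that array. In F2 the smallest P was that of Fibcd1 and Pcp4 (r = -0.69, permutation P = 0.0185, adjusted P = 0.44). That r pools separate sets of Fibcd1 values, described below, and is not read as a trend. Wfs1 and Bok had r = 0.61 in F2 (permutation P = 0.038, adjusted P = 0.47). Rgs14 and Amigo2, both CA2 markers, had r = -0.64 in F2 (permutation P = 0.038; rho = -0.71, permutation P = 0.015; adjusted P = 0.47 and 0.28). Within slide and diet group, r was 0.44 for Pou3f1 and Amigo2 in F1, -0.82 for Wfs1 and Mpped1 in F1 and -0.63 for Rgs14 and Amigo2 in F2. Permutation P was 0.032, 0.19 and 0.065, with an adjusted P of 0.75 for each. Each slide and diet group held 2 arrays, whose deviations mirror each other. These r therefore rest on fewer independent values than there were arrays.

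**Figure D4:**
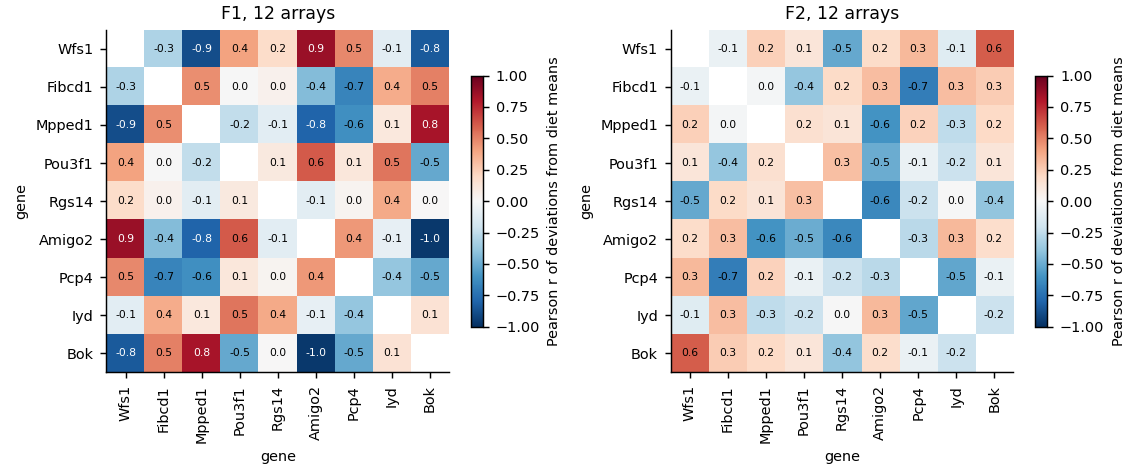
Pearson r (colour and printed value) between the deviations of each pair of field markers (x and y axes) from their diet group means, over 12 arrays in F1 and 12 in F2. Strong values of both signs in F1 joined Wfs1, Mpped1, Amigo2 and Bok, and none of the 36 F1 pairs kept an r beyond 0.8 in size without MD F1 replicate 6.

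Fibcd1 in F2 lay in a pair of separate sets of arrays. On 6 arrays, CD F2 replicates 3 and 5 and MD F2 replicates 2, 4, 5 and 6, it was between 10.40 and 10.68, and on the other 6 between 11.22 and 11.55, with a gap of 0.55 between the sets. Both diets and both codes were in each set, with 2 CD and 4 MD arrays in the lower and 4 CD and 2 MD arrays in the upper. All 3 F2 arrays with a sex measure below -5 were in the lower set, and both F2 arrays that stood apart were in the upper. The part of these in the sets was not tested. No pooled correlation with Fibcd1 in F2 is therefore read as a trend. Within the lower set r with Pcp4 was -0.70 (exact permutation P = 0.14) and within the upper set -0.48 (exact permutation P = 0.31). In F1, r of Fibcd1 with Pcp4 was -0.66 (permutation P = 0.072, adjusted P = 0.47).

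Genes whose deviations from the group means were most like those of Fibcd1 over 24 arrays, among 13790 genes above background on all arrays, were Pdgfb (r = 0.96), Hk1 (r = 0.96) and Abcb8 (r = 0.96). Pdgfb encodes a platelet-derived growth factor chain, Hk1 a hexokinase of glycolysis and Abcb8 a mitochondrial transporter. In F1 alone r was 0.94, 0.92 and 0.91, and without the 3 arrays that stood apart it was 0.97, 0.95 and 0.95. Within the lower F2 set r was 0.65, 0.85 and 0.09, and within the upper set 0.25, 0.40 and 0.76. These genes were picked for their likeness over the same arrays, so the values are a description with no test. The level of the 5 oligodendrocyte genes had r = 0.87 with Fibcd1 within the lower set and 0.04 within the upper, likewise with no test, since this list was picked from 14 after the values were seen.

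**Figure D5:**
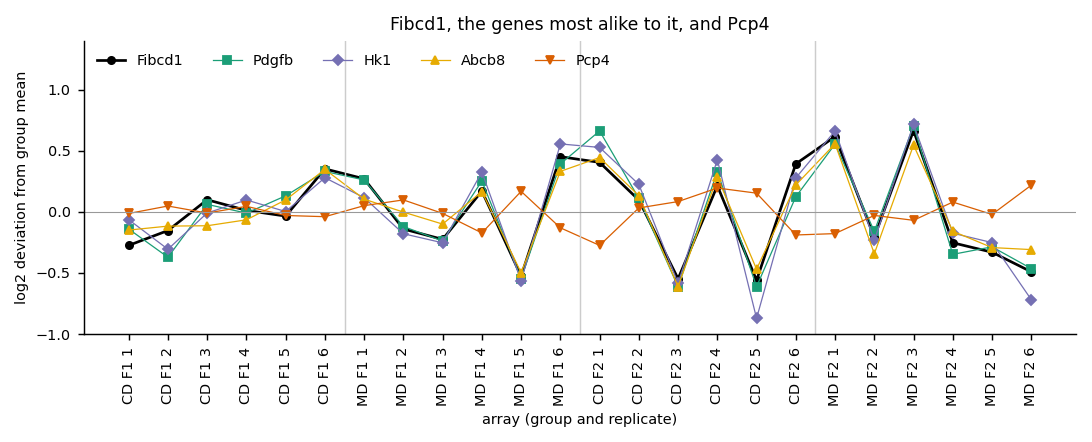
Deviation of the log2 signal from its group mean (y axis) on each of the 24 arrays (x axis) for Fibcd1, for Pdgfb, Hk1 and Abcb8, whose deviations were most like it, and for Pcp4. Fibcd1 and the 3 alike genes had r of 0.96 over all 24 arrays, and Pcp4 had r of -0.66 with Fibcd1 over the 12 F1 arrays.

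The genes most alike to the other members were as follows. The CA2 marker Rgs14 was followed by Pnrc1 (r = 0.85), Arhgef40 (r = 0.78) and Gpsm3 (r = 0.73), and Pcp4 by Cfap97 (r = 0.86), Polr2l (r = 0.82) and Rpl36a (r = 0.80). Amigo2 was followed by Cldn11 (r = 0.93), Ank3 (r = 0.92) and Minpp1 (r = 0.92), but without the 3 arrays that stood apart these fell to 0.68, 0.57 and 0.48. Among CA1 markers, Wfs1 was followed by Csnk1g3 (r = 0.78), Rplp0 (r = 0.77) and Drg1 (r = 0.76), and Mpped1 by Cd86 (r = 0.82), Cables1 (r = 0.79) and Oprl1 (r = 0.79). Pou3f1 was followed by Adss (r = 0.81), Maip1 (r = 0.76) and Zfp9 (r = 0.75). For CA3, Bok was followed by Fthl17a (r = 0.85) and Nup62 (r = 0.82), and Iyd by Kif5b (r = 0.76), Prag1 (r = 0.73) and Emp2 (r = 0.69). Without the same 3 arrays, r was 0.67 and 0.55 for the genes named for Bok. For those of Wfs1 it was 0.62, 0.63 and 0.64, and for those of Pou3f1 0.67, 0.67 and 0.66. It lay between 0.70 and 0.89 for the genes named for Mpped1, Rgs14, Pcp4 and Iyd. When genes were ranked without the 3 arrays, the first gene stayed the same for Fibcd1, Rgs14 and Pcp4 and was another for the remaining 6 members.

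Further field genes were described beside the members. None of 4 further CA1 genes, 7 CA2 genes and 6 CA3 genes passed the adjusted limma threshold in any of the 4 comparisons. In F1, 1 of 4 CA1 genes, 0 of 7 CA2 genes and 2 of 6 CA3 genes had an unadjusted P under 0.05, beside 14.4% of all probes. In F2 the counts were 0 of 4, 2 of 7 and 0 of 6 beside 5.6%, by code 1 of 4, 0 of 7 and 0 of 6 beside 7.78%, and in the interaction 1 of 4, 0 of 7 and 2 of 6 beside 8.29%. Man1a, a Golgi mannosidase used as a CA1 marker, differed by -0.56 (SE 0.111, adjusted P = 0.16) between MD F1 and CD F1, and its interaction with generation was -0.75 (SE 0.143, adjusted P = 0.11). Socs2, a suppressor of cytokine signalling counted with CA3, differed by -0.35 (adjusted P = 0.21) in F1 and by -0.46 (adjusted P = 0.39) in the interaction. The other CA3 gene with an unadjusted F1 P under 0.05, Cdh24, a cadherin gene named after its values were seen, went the opposite way, by 1.15 (adjusted P = 0.30), with 1.17 (adjusted P = 0.56) in the interaction. Fgf2, a fibroblast growth factor listed with CA2, differed by 0.82 (adjusted P = 0.36) in F1 and 0.84 (adjusted P = 0.62) in the interaction. Cdh24 and Fgf2 were each above background on 22 of 24 arrays, so the sizes of their differences are uncertain. In F2 the smallest P of each list was that of Man1a (0.20, adjusted P = 0.89), Stard5 (0.27, adjusted P = 0.89), a lipid transfer protein gene, and Coch (-0.24, adjusted P = 0.91), which encodes cochlin. By the code, they were Ccn3 (-0.41, adjusted P = 0.50), Cacng5 (0.28, adjusted P = 0.79), an AMPA receptor auxiliary subunit gene, and Socs2 (0.11, adjusted P = 0.82).

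The median F1 difference was -0.23 for the 4 further CA1 genes, 0.01 for the CA2 genes and -0.01 for the CA3 genes. In F2 it was 0.07, 0.06 and -0.08. The median over all probes was 0.01 in both. For dentate granule cell genes the F1 and F2 medians were -0.03 and 0.05, for glutamatergic neurons -0.06 and 0.02 and for interneurons -0.11 and 0.07. Oligodendrocyte genes had -0.11 and -0.07, astrocyte genes -0.11 and -0.02, microglia genes -0.0009 and 0.04, and vascular genes 0.0025 and 0.02. Neocortex genes had -0.03 and 0.08, thalamus genes -0.23 and 0.16 and striatum genes -0.11 and 0.03, and choroid plexus genes had an F1 median of 0.46. Among the lists other than the field genes, the smallest F1 P belonged to Mobp, a myelin gene, which differed by -0.25 (adjusted P = 0.22).

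Members were also set against the level of each of 14 lists of other genes, 252 relations over both generations, again after the values were seen. One of 252 passed, between Pou3f1 and the 6 further CA3 genes in F1 (r = -0.93, permutation P = 0.00015, adjusted P = 0.038; rho = -0.91, permutation P = 0.00031, adjusted P = 0.078). It was -0.88 without the 2 arrays farthest from the Pou3f1 median, -0.96 within slide and diet group and -0.91 without MD F1 replicate 6. Each slide and diet group held 2 arrays, whose deviations mirror each other. The value of -0.96 therefore rests on fewer independent values than there were arrays. The list did not act as one, since r with Pou3f1 was -0.82 for Cdh24 and -0.69 for Grik4, but 0.46 for Coch, 0.24 for Socs2, 0.53 for Npy2r and 0.54 for Homer3. Cdh24 was above background on 22 of 24 arrays. In F2 the relation was -0.36 (permutation P = 0.27, adjusted P = 0.66).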

How the data were processed

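Cy3-labelled hippocampal RNA on Agilent mouse arrays was scanned by the study and spot intensities were extracted with Feature Extraction 10.7.3.1 per the file headers (the study's methods name another version). The deposited intensity per spot was the background-subtracted, detrended processed signal. Here log2 intensities, without spots marked as irregular (1939 in F1 and 2097 in F2 of 43020 per array), were quantile-normalised between the arrays of a generation, as in the study's methods, or between all 24 arrays for comparisons across generations, and spots of a probe were averaged. The authors' own table of intensities, quantile-normalised within each generation (sorted columns differ by at most 0.037), served as an alternative. Probes were named through their RefSeq accessions, and all 92 list genes were matched. No probe sequence or coordinate was used.

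Groups came from the sample labels. Differences were tested with limma 3.58.1 in R 4.3.3, fitting each generation alone (diet, or code with diet as a term) and all arrays for the interaction, with Benjamini-Hochberg adjustment over all probes and a threshold of 0.1. Probes needed values on 2 arrays per group. The fit was tested on simulated data with independent noise and added log2 differences of 1. The members' diet and code differences were smaller, and recovery at their size was not examined. Correlations used 100000 permutations within diet groups, two-sided, and exact permutation tests are named where used. Other settings were 75th percentile scaling, normexp background correction (offset 50, on median spot and background intensities), dim probes left out, irregular spots kept, slide or replicate number as a block, sex measure or code as a term, and arrays left out. Named genes were all members, the gene of each list with the smallest P in a comparison, and the 3 genes most alike to each member, of which 1 is not reported here. The members and lists were chosen with earlier results of these data known.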

Additional observations from a re-analysis of the deposited data

Results flagged for a closer look

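Of 36 sets of 6 arrays (9 members in 4 groups), 5 held 1 array farther from the others than Dixon's 95% limit allows, where chance gives about 1 in 20, or 1.8 sets. Of these, 4 of 5 were on MD F1 replicate 6. On that array Wfs1 was 13.99 (others 14.27 to 14.37), Mpped1 14.88 (others 14.49 to 14.62), Amigo2 7.95 (others 9.20 to 9.41) and Bok 14.40 (others 13.78 to 13.84), all as log2 signal. The fifth was Iyd on CD F1 replicate 5, at 5.02 with the others between 4.46 and 4.64. No member's diet difference passed a test of a difference between generations.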

How the results depend on the processing

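Under all settings run, 0 of 9 members passed the adjusted threshold for diet in F1, diet in F2, code, interaction or diet by code. For the first 4 of these, 346 of 360 differences recomputed under another setting kept their direction and 14 reversed. For diet in F1, 75th percentile scaling turned Rgs14 to 0.045 and normexp correction turned Rgs14 to 0.0052 and Bok to -0.030. The sex measure as a term turned Mpped1 to -0.041, Amigo2 to 0.25 and Bok to -0.16, and without the arrays that stood apart Amigo2 was 0.094 and Bok -0.090. For code, 75th percentile scaling turned Bok to 0.00052, normexp correction turned Rgs14 to -0.0089, slide as a block turned Rgs14 to -0.022, and without the arrays that stood apart Pou3f1 was -0.025 and Rgs14 -0.013. For the interaction without those arrays, Amigo2 was 0.11. In the added comparisons, 75th percentile scaling turned CD F2 against CD F1 to -0.053 for Mpped1, -0.074 for Pou3f1 and -0.063 for Rgs14, and diet by code to -0.0023 for Pou3f1 and -0.021 for Pcp4. Without the arrays that stood apart, diet by code was -0.032 for Pcp4. The cause was not tested. Leaving out 1 array at a time reversed 26 of 540 differences. For diet in F1 the range was -0.026 to 0.020 for Rgs14, -0.20 to 0.094 for Amigo2 and -0.090 to 0.033 for Bok. For diet in F2 it was -0.0074 to 0.072 for Pou3f1 and -0.037 to 0.065 for Amigo2. For code it was -0.032 to 0.048 for Wfs1, -0.024 to 0.042 for Rgs14 and -0.082 to 0.018 for Bok, and for the interaction -0.082 to 0.031 for Mpped1 and -0.20 to 0.095 for Amigo2. Wfs1 in F1 stayed between -0.27 and -0.19 and Iyd in F1 between 0.33 and 0.46.

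The replicate number, entered as a block, left 0 members called, with limma adjusted P of 0.33 for Wfs1 and 0.29 for Iyd in F1. Deviations of same-numbered CD and MD arrays correlated with r above 0.1 in 1 of 6 pairs in F1 (-0.05 to 0.20) and 3 of 6 in F2 (-0.17 to 0.19), and 0 of 6 and 2 of 6 correlated best with their own number, so numbers were not taken as pairs. Same-numbered F2 arrays also share the code, and some share a slide. From the authors' values, a single pair of 72 passed, Pou3f1 with Amigo2 in F1 (r = 0.63, permutation P = 0.0005, adjusted P = 0.036), so 1 against 0. Over all probes, calls for diet in F1 were 13, against 4 by 75th percentile scaling, 5 by normexp, 6 without dim probes, 0 with the slide, the replicate block or the sex measure, 73 with all 24 arrays together and 152 without MD F1 replicate 6. Calls for diet in F2 were 0, and 18 with all 24 arrays together. Calls for code were 10, and ranged from 0 to 393 over the settings. Calls for the interaction were 5, and 9 by normexp, 11 without dim probes, 27 with the replicate block, 12 with the sex measure and 22 without the arrays that stood apart. Diet by code gave 0 calls, and 5 by normexp. A missed threshold does not show that a member did not differ, and the low signal of Iyd limits what its values can show.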
